A study of Mus musculus with 18 samples.

Results

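The splicing factors and heterogeneous nuclear ribonucleoproteins (hnRNPs) of the mouse ileal epithelium were taken as all genes whose platform symbol begins with Srsf, Sfrs, Hnrn, Sf3a, Sf3b, Snrp or U2af, together with Tra2a and Tra2b. The array carried 53 such genes on 124 probes, and 50 of them had a probe that 3 or more of the 18 arrays detected (detection p under 0.05). These 50 genes, each represented by its detected probe of highest mean, stood among 16835 genes and unnamed probes tested. They comprised 12 SR proteins and relatives, 18 hnRNPs, 9 subunits of SF3A and SF3B, 8 proteins of small nuclear ribonucleoprotein particles (snRNPs) and 3 members of the U2AF family. The other 3 genes were not measured: Hnrnpa3 reached detection in at most 2 arrays by any probe, and Hnrnph2 and Snrpe in 0.

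Every sample came from a CD-1 pup, an outbred stock, and both sexes were used. At 11 days of age each pup received a single orogastric gavage of 50 uL phosphate-buffered saline (PBS), either alone as vehicle or carrying 1e+08 colony-forming units of Lactobacillus reuteri DSM 17938 or of L. reuteri ATCC PTA 6475, strains of a gut bacterium used as a probiotic. Ileal epithelium was cut out by laser capture 4 h or 24 h later (age 11 or 12 days), from 24 sections per mouse, and its RNA was read on an Illumina bead array. The 6 groups of strain and time held 3 mice each, with a separate mouse for every array.

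The members act at successive steps of pre-mRNA splicing. SR proteins and the related Tra2 proteins bind exon enhancers and favour inclusion of an exon, whereas many hnRNPs bind silencers, run along the nascent transcript and often oppose them. U2AF recognises the polypyrimidine tract and the end of the intron, SF3A and SF3B hold the U2 snRNP on the branch point, and Sm proteins, which most of the Snrp genes measured here encode, form a ring around the small nuclear RNAs U1, U2, U4 and U5. Many of these genes splice their own transcripts into several forms, so that probes of a single gene can read different transcripts; which form a probe reads is not given in the files used here.

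The promoters of 5 members are shown, taken from the genes named below as higher or lower at 24 h after ATCC PTA 6475 than in PBS that have a single start in the RefSeq table of build GRCm38.p6. In that comparison Tra2a, Srsf5 and Srsf2 were the higher ones and Srsf9 and Snrpd2 the lower ones at an unadjusted p under 0.05; with arrays scaled to a common median all 5 kept their sign, but the 3 higher ones no longer had such a p. Each line gives the 100 bases before the start, 5′ to 3′ on the gene's strand, and capitals mark the motifs named after the lines.
Tra2a, chr6:49264053-49264152, minus strand: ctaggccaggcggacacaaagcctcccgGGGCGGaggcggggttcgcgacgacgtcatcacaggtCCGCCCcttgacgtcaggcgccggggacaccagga
Srsf5, chr12:80945399-80945498, plus strand: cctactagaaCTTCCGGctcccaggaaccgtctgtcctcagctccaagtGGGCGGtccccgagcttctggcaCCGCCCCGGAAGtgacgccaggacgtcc
Srsf2, chr11:116853095-116853194, minus strand: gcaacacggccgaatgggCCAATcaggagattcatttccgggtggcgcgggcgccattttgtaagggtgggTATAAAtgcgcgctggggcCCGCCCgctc
Srsf9, chr5:115327077-115327176, plus strand: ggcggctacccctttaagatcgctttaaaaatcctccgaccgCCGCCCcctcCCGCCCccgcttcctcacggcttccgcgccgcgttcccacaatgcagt
Snrpd2, chr7:19149738-19149837, plus strand: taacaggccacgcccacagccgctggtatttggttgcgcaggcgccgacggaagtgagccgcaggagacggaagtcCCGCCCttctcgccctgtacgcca

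All 5 stretches hold at least 1 GC box (GGGCGG or its reverse complement), on both sides of the comparison. Srsf5 also has a pair of ETS motifs (CCGGAAG, read on either strand), the second of which overlaps a GC box by its first base, and Srsf2 has a CCAAT box and a TATA box (TATAAA). A window of 300 bases, 250 of them before the start, was found for 43 of the 50 members, 58 windows in all. A GC box was present in 43 of these 58 windows (74.1%) and in 35.7% of the 32851 windows in the table. The ETS motif was present in 18 windows (31.0%, against 8.86% of all windows) and the CCAAT box in 28 (48.3% against 37.4%). The TATA box was present in 6 (10.3% against 13.6%), the NRF1 motif GCATGCGC in 3 (5.17% against 2.71%) and the YY1 motif AAGATGGC in 2 (3.45% against 2.75%). The windows of the members were also richer in G and C, with a median of 62.5% against 52.7% of bases. These are matches of letters on either strand, given as a description.

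Mean bead signal per array ran from 210.3 in ATCC PTA 6475 24 h replicate 2 to 459.7 in PBS 4 h replicate 1, and an array detected between 20284 and 22848 of the 45281 probes. Of 15 epithelial markers 13 were measured; Fabp1 and Fabp2 were not. Markers of other tissue layers were measured as well, among them all 8 of smooth muscle, all 9 of fibroblasts and 10 of 15 of leukocytes. In bulk RNA, fewer cells of a type and less RNA per cell cannot be told apart. At 24 h the summed signal of the fibroblast list ran from 16541 to 17549 in PBS, from 17705 to 23052 after DSM 17938 and from 19838 to 22963 after ATCC PTA 6475, while that of the smooth muscle list ran from 57560 to 61739, from 55741 to 66931 and from 45604 to 75630. The leukocyte list ran from 2819 to 5002 in PBS at 24 h, from 2623 to 2940 after DSM 17938 and from 2918 to 3766 after ATCC PTA 6475. Its 10 genes all lay below 0 for DSM 17938 against PBS at 24 h (median -0.50). For ATCC PTA 6475 against PBS at 4 h their median was 0.74. In that comparison 5 of 10 were higher at an unadjusted p under 0.05 by limma, as were 1.76% of all genes. The part of these cells in the results below was not tested.

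Values below are log2 normalised intensities of a gene's own probe, and differences are differences of log2 group means. Brightness depends on the probe as well as on the transcript, so levels are not ranked between genes. A total of 47 members were detected in all 18 arrays. The exceptions were Srsf12 (3 arrays), Snrpb2 (3 arrays) and Sf3b1 (4 arrays), whose values lay near background and have only a bound in several groups. Over the 18 mice Hnrnpab, an AU-rich RNA binding protein, ran from 13.26 to 13.82, and Hnrnpc, a core particle protein, from 12.72 to 13.09. Srsf1, the founding SR protein, ran from 12.71 to 13.25, and Snrpg, an Sm ring subunit, from 12.25 to 12.60. Hnrnpu, a scaffold protein of chromatin-bound RNA, ran from 4.84 to 5.52, and Sf3a2, a subunit of SF3A, from 4.80 to 5.94.

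Of the other SR proteins, Srsf2 ran from 12.64 to 13.22, Srsf5 from 11.20 to 12.37 and Srsf6 from 10.45 to 10.99 over the 18 mice. Among the hnRNPs Hnrnpl, a binder of CA repeats, ran from 12.17 to 12.64 and Hnrnpm, which binds GU-rich RNA, from 12.08 to 12.60. Hnrnpul1, a relative of Hnrnpu, ran from 5.57 to 6.32 and Hnrnpd from 5.35 to 6.14.

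Over the same mice Sf3b2 ran from 11.27 to 11.61, Sf3b5, a small SF3B subunit, from 10.98 to 11.58, and Sf3a1, which joins SF3A to the U2 particle, from 9.95 to 10.58. Snrpa, a protein specific to the U1 particle, ran from 10.21 to 10.79, and Snrpd3, an Sm ring subunit, from 10.48 to 11.42. Of U2AF, the small subunit U2af1 ran from 8.38 to 8.94, the large subunit U2af2 from 7.61 to 8.43 and the relative U2af1l4 from 6.09 to 6.92.

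The members varied little between mice of a group. Their median standard deviation within groups was 0.171, compared with 0.227 over all genes tested. The steadiest was Sf3b2, a subunit that contacts RNA near the branch point, at 0.09. Srsf1 and Sf3a3, another SF3A subunit, followed at 0.10 each, then Hnrnpc and Hnrnpm at 0.11 each. The most variable were Sf3b6 (0.62), a subunit that contacts the branch adenosine, Srsf11 (0.42), Hnrnpa1 (0.40), Hnrnpa2b1 (0.36) and Hnrnpll (0.32), the last a regulator of CD45 splicing in T cells.

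**Figure D1:**
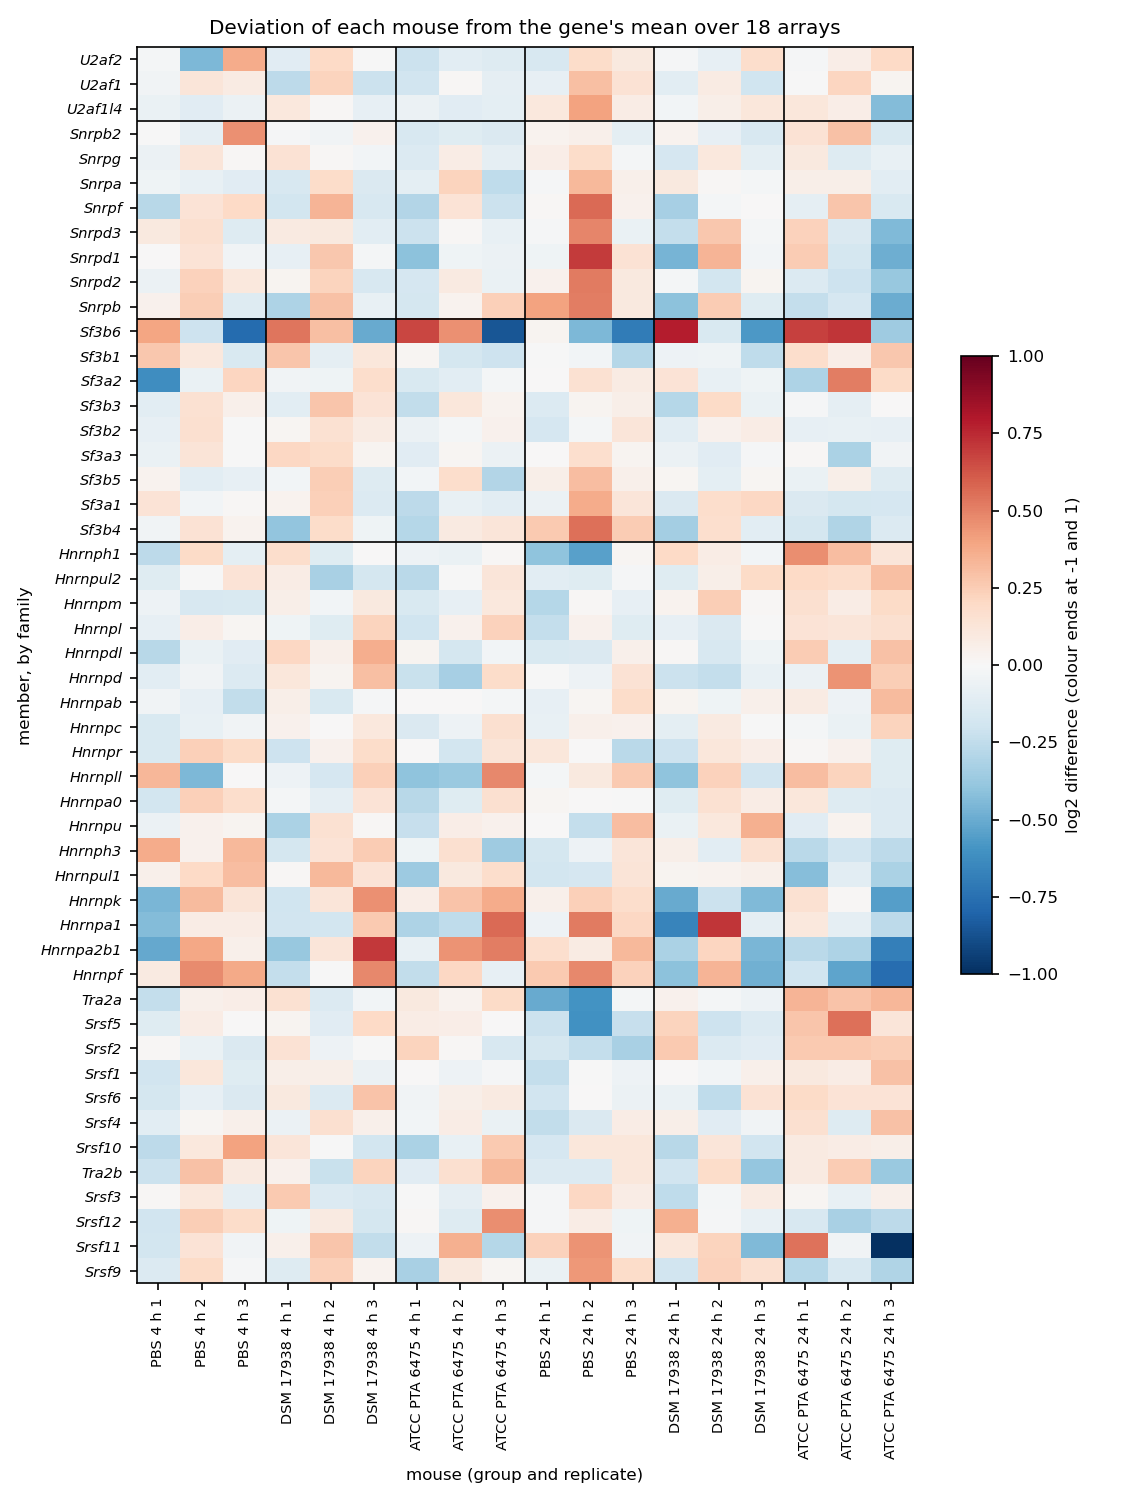
Each row is a member, ordered by family, and each column a mouse; colour gives the log2 difference of the mouse from the gene's mean over 18 arrays, in which blue is lower and red higher and the colour ends at -1 and 1. The column of PBS 24 h replicate 2 is red over most snRNP proteins, and the row of Sf3b6 is red in replicate 1 and blue in replicate 3 of most groups.

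The question for each strain was whether a single dose changed the epithelium relative to vehicle at the same hour. ATCC PTA 6475 at 24 h gave the largest number of members with a small p. By limma, adjusted over all genes tested, 0 of 50 members passed 0.05 (lowest adjusted p = 0.123), as did 0% of all genes. That fit held no term for replicate number, and the last section gives the fit with one. At an unadjusted p under 0.05 there were 7 higher and 7 lower members of 50, where 7.59% of all genes were higher and 7.48% lower by the same rule. The members' median difference was -0.05, beside 0.02 for all genes. The 3 mice of each group did not overlap for 10 higher and 9 lower members, and over all genes the shares were 10.8% and 10.6%. The 10 include Sf3b1 and the 9 include Srsf12, both near background and detected in 0 of the PBS mice at 24 h. These counts depend on how arrays were scaled: with arrays set to a common median in place of quantile normalisation, the median of all genes itself moved to -0.16, and 0 members were higher and 8 lower at an unadjusted p under 0.05, 7 of which were among the 14.

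Among SR proteins and relatives, 4 of 12 were higher and 1 lower at an unadjusted p under 0.05, and 8 of 12 differences lay above 0 (median 0.13, which became -0.01 relative to all genes under median scaling). Tra2a, which activates exons with GAA-rich enhancers, read 10.81, 10.75 and 10.81 after ATCC PTA 6475 and 9.97, 9.87 and 10.45 in PBS. All 3 treated mice were above all PBS mice, and PBS replicate 3 was nearest to them. The difference was 0.69 (SE 0.14, 1.62-fold; limma unadjusted p = 0.000187, adjusted p = 0.123).

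Srsf5, an SR protein first described in rats as an insulin-induced gene of liver cells, read 12.09, 12.37 and 11.93 after ATCC PTA 6475 and 11.60, 11.20 and 11.58 in PBS, a difference of 0.67 (SE 0.15; limma adjusted p = 0.123). Srsf2, also known as SC35 and a marker of nuclear speckles, read 13.22, 13.22 and 13.21 against 12.79, 12.73 and 12.64, a difference of 0.50 (SE 0.13; limma adjusted p = 0.130). For both genes the groups did not overlap, and the 3 treated values of Srsf2 were nearly equal. Srsf1 read 13.05, 13.02 and 13.25 against 12.71, 12.95 and 12.90, a difference of 0.25 (SE 0.12; limma adjusted p = 0.315) that was -0.14 under median scaling, or 0.02 relative to all genes. On the lower side stood Srsf9, a short SR protein, with 10.18, 10.30 and 10.17 against 10.40, 10.90 and 10.65, a difference of -0.43 (SE 0.16; limma adjusted p = 0.237). The other 7 members of the family lay between -0.40 (Srsf11) and 0.24 (Srsf6), each with an unadjusted p of 0.05 or more.

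Among the hnRNPs, 3 of 18 were higher and 2 lower at an unadjusted p under 0.05, with a median difference of 0.03 (-0.12 relative to all genes under median scaling). Hnrnph1 and Hnrnpf are close relatives that bind runs of G, and their values lay on opposite sides. Hnrnph1 read 11.24, 11.08 and 10.90 after ATCC PTA 6475 and 10.37, 10.23 and 10.80 in PBS, a difference of 0.61 (SE 0.16; limma adjusted p = 0.130). Hnrnpf read 6.43, 6.10 and 5.87 against 6.89, 7.11 and 6.86, a difference of -0.82 (SE 0.23; limma adjusted p = 0.136). In both the groups did not overlap, but the gap for Hnrnph1 was narrow, since PBS replicate 3 came close to the lowest treated mouse.

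Hnrnpa2b1, which binds silencers and sorts RNA to cell processes and exosomes, read 8.50, 8.46 and 8.08 against 8.93, 8.84 and 9.09, a difference of -0.61 (SE 0.27; limma adjusted p = 0.303). Hnrnpul2, a nuclear scaffold-like protein, read 9.53, 9.51 and 9.64 against 9.23, 9.21 and 9.32, a difference of 0.31 (SE 0.14; limma adjusted p = 0.303) that was -0.00186 under median scaling, or 0.15 relative to all genes. Hnrnpm, the seventh higher member, differed by 0.26 and is named here only after its value was seen. Under median scaling its difference was -0.10, or 0.06 relative to all genes. Its other probes, detected in all 18 arrays, differed by -0.14 and -0.22. The other 13 hnRNPs lay between -0.31 (Hnrnpa1) and 0.24 (Hnrnpl).

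Among SF3A and SF3B, 2 of 9 members were lower and 0 higher at an unadjusted p under 0.05. The median was -0.05, or -0.07 relative to all genes; under median scaling it was -0.24 relative to all genes, and without PBS 24 h replicate 3 it was 0.02, with 5 of 9 above 0. Sf3b4, which contacts pre-mRNA upstream of the branch point, read 9.50, 9.38 and 9.54 after ATCC PTA 6475 and 9.94, 10.23 and 9.94 in PBS, a difference of -0.56 (SE 0.17; limma adjusted p = 0.155), with no overlap of the groups. Sf3a1, the seventh lower member, differed by -0.31 and is likewise named after its value was seen; its second probe differed by 0.36. Sf3b1, the subunit that clamps the branch helix, was detected in 0 of 3 PBS mice at 24 h, so no difference can be read from it. The 3 members of U2AF lay between -0.27 (U2af1l4) and 0.04 (U2af2).

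Among the snRNP proteins, 7 of 8 differences lay below 0, with a median of -0.22 beside 0.02 for all genes; the count was also 7 of 8 under median scaling and with the deposited values. Relative to all genes the median was -0.24, and -0.41 under median scaling. Snrpb, which encodes the SmB and SmB' proteins of the Sm ring, read 10.08, 10.15 and 9.82 after ATCC PTA 6475 and 10.72, 10.82 and 10.41 in PBS, a difference of -0.64 (SE 0.19; limma adjusted p = 0.157). Snrpd2, the SmD2 subunit, read 11.95, 11.88 and 11.71 against 12.13, 12.61 and 12.18, a difference of -0.46 (SE 0.15; limma adjusted p = 0.177). The groups did not overlap for either gene. By their chosen probes the remaining 6 lay between -0.40 (Snrpd1) and 0.10 (Snrpb2, near background), each with an unadjusted p of 0.05 or more. Second probes of Snrpa, Snrpd1 and Snrpg differed by -0.71, -0.49 and -0.30, where the chosen ones differed by -0.12, -0.40 and -0.11. In a limma fit of all detected probes, the second probes of Snrpa and Snrpd1 had an unadjusted p under 0.05.

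The size of the snRNP difference depended on single mice. PBS 24 h replicate 2 had the highest value of all 18 mice for 7 of the 8 snRNP genes and for 14 of the 50 members. Snrpf in that mouse read 11.11, against 10.55 and 10.59 in the other PBS mice, and Snrpd1 read 10.89, against 10.14 and 10.34. Without it the snRNP median at 24 h went from -0.22 to -0.07 for ATCC PTA 6475, with 7 of 8 still below 0. For DSM 17938 it went from -0.20 with 8 of 8 below 0 to -0.09 with 6 of 8. Leaving out ATCC PTA 6475 24 h replicate 3 gave -0.10 for that strain, and leaving out DSM 17938 24 h replicate 1 gave -0.12 for the other. Of the proliferation genes, 19 of 21 lay below 0 after ATCC PTA 6475 (median -0.34). At an unadjusted p under 0.05, 4 of the 21 were lower (7.48% of all genes), among them Mcm3, a subunit of the replicative helicase (-0.80). Their summed signal at 24 h ran from 11917 to 16000 in PBS, from 11293 to 13904 after DSM 17938 and from 11800 to 12477 after ATCC PTA 6475. The part of proliferation in the snRNP values was not tested.

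**Figure D2:**
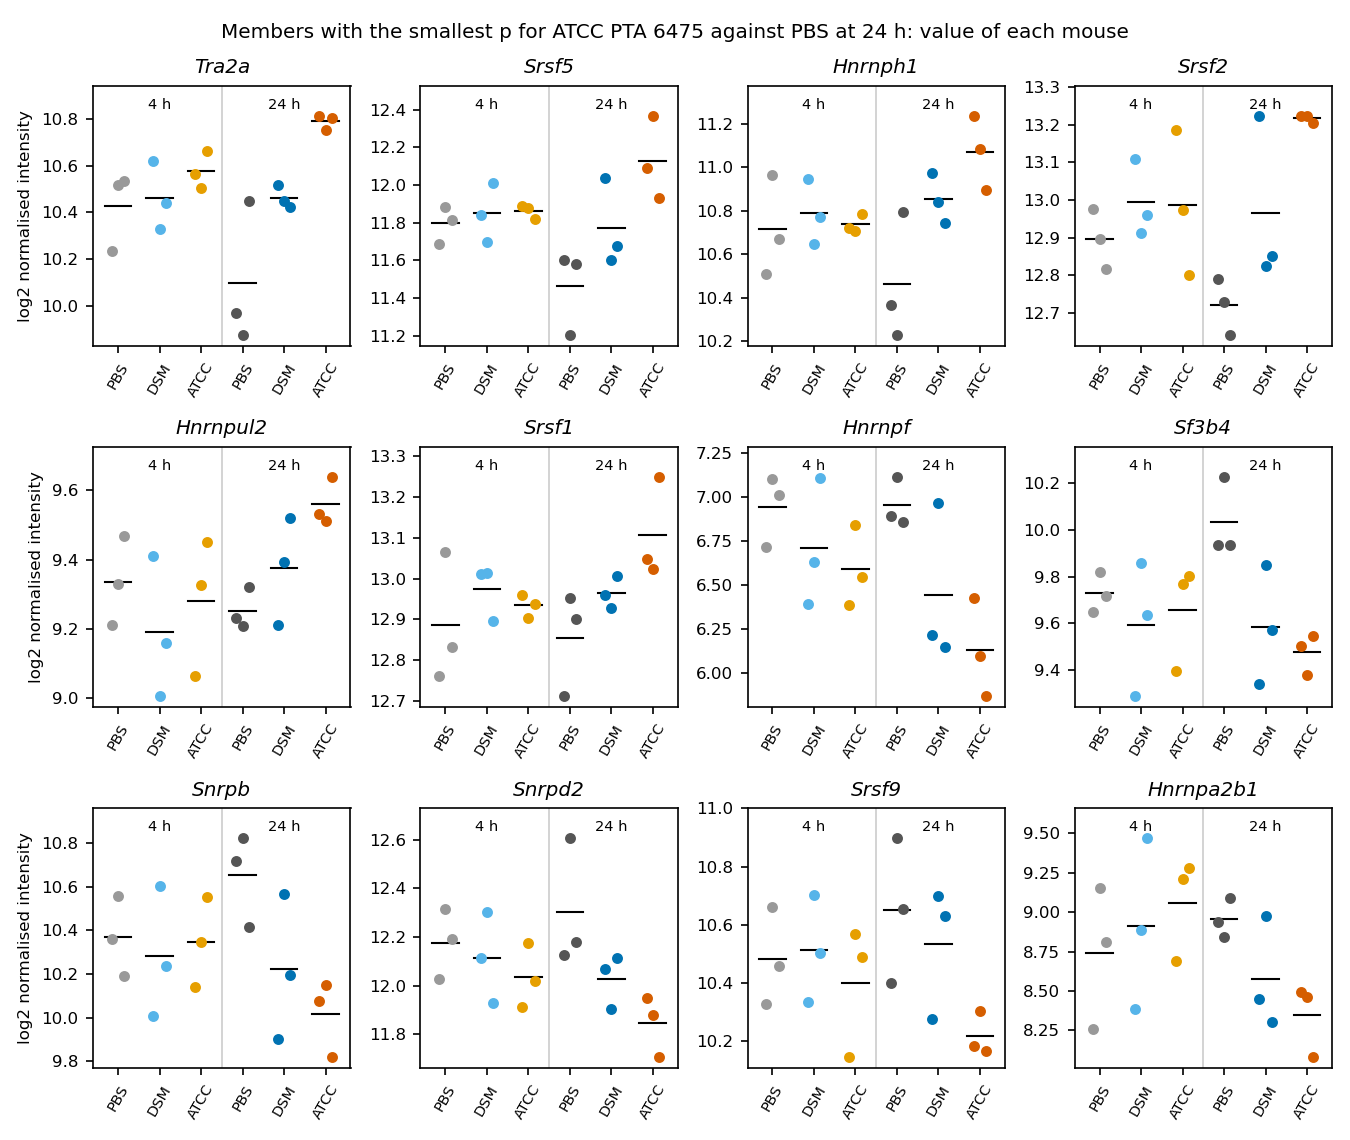
Each panel is a member, each point a mouse and each line a group mean, on a scale of log2 normalised intensity; the left side of a panel is 4 h and the right side 24 h. At 24 h the 3 ATCC PTA 6475 mice lie clear of the 3 PBS mice in all 12 panels, above in the first 6 and below in the last 6, and the DSM 17938 mean lies between them; under median scaling Srsf1 and Hnrnpul2 change sign, though not relative to all genes.

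Other probes of a gene did not always follow the chosen probe. At least 1 further detected probe existed for 31 members; for ATCC PTA 6475 at 24 h, 33 of these 52 probes had the sign of the chosen probe and 19 the opposite sign. Hnrnph1 had 5 detected probes, all above 0: 3 of them differed by 0.61, 0.67 and 0.58 and the others by 0.15 and 0.27. The 3 probes of Snrpb differed by -0.64, -0.68 and -0.77. Those of Srsf2 differed by 0.50, 0.22 and 0.04. The second probe of Hnrnpc differed by 0.40, where the chosen one differed by 0.04. This second probe had an unadjusted p under 0.05 in the limma fit of all detected probes. Tra2a, Hnrnpf, Srsf9 and Snrpd2 had no second detected probe.

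Well detected probes of several members lay on opposite sides. Among them were Hnrnpm and Sf3a1, given above, and Hnrnpa1, whose chosen probe differed by -0.31 and another by 0.21. Hnrnpd (0.18 and -0.09), Hnrnpab (0.07 and -0.17) and Hnrnpul1 (-0.21 and 0.08) also split. The 4 members that follow had a wider spread than these. The second probe of Srsf5 differed by -0.34 where the chosen one differed by 0.67. Srsf11, an SR-related protein, split into pairs, with -0.40 and -0.35 for one pair and 0.66 and 0.44 for the other. For Sf3b6 the chosen probe differed by 0.72 and the others by -0.29 and -0.24, and for Hnrnpul2 the probes differed by 0.31 and -0.49. In the limma fit of all detected probes, both probes of Hnrnpul2 had an unadjusted p under 0.05. The sign given for all the genes named in this paragraph so far is that of a probe. The 5 probes of Hnrnpa2b1 ran from -0.61 to 0.33, but those above 0 were near background, detected in 6 and 3 arrays, and the other 3 lay below 0. The chosen probe of Sf3b6 also differed by replicate number: in PBS at 24 h it read 7.61, 7.13 and 6.89 in replicates 1, 2 and 3, and in DSM 17938 at 24 h 8.37, 7.43 and 7.01.

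**Figure D3:**
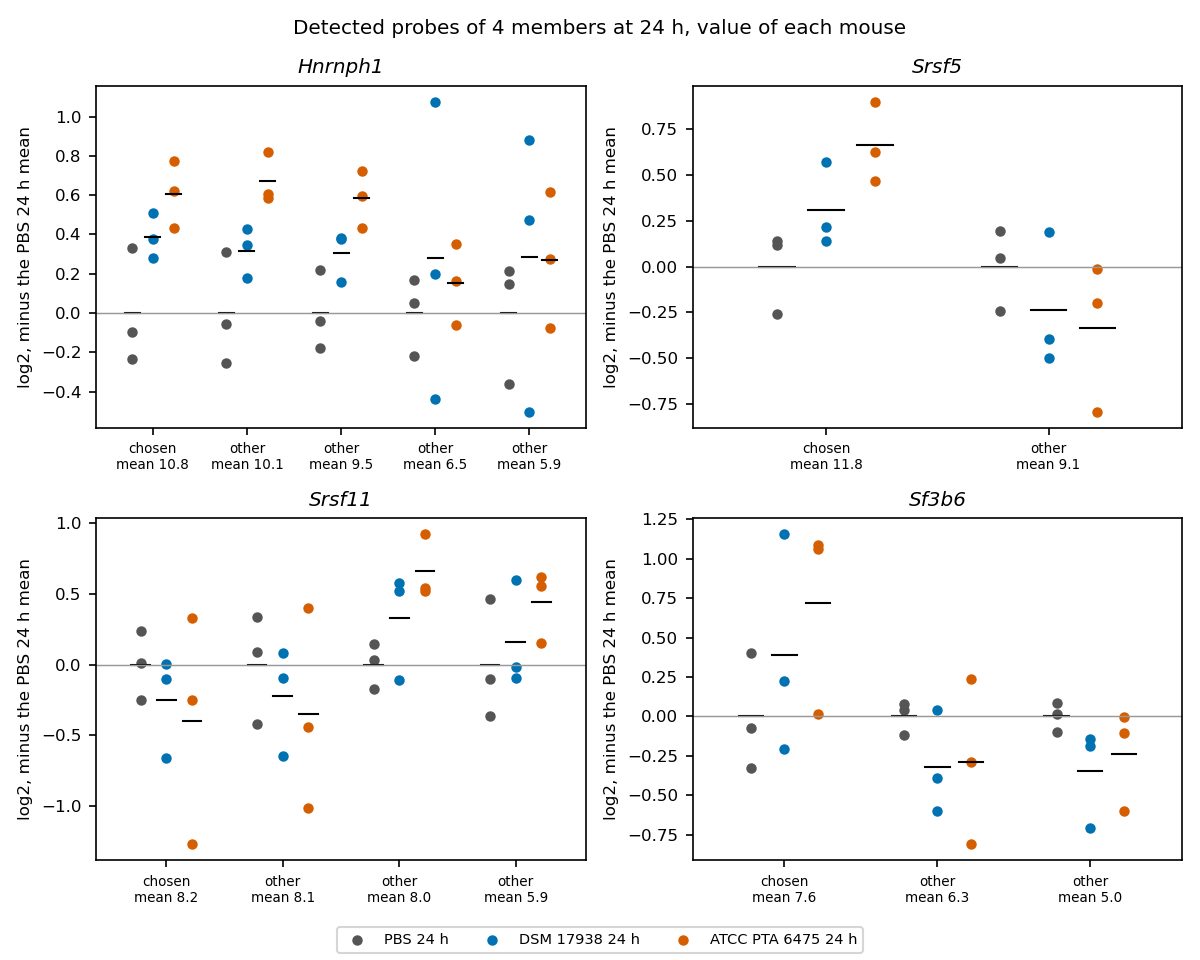
Points are mice at 24 h, shown for each detected probe of 4 members as the log2 value minus that probe's PBS 24 h mean; lines are group means, and the label under each probe gives its mean over 18 arrays. The 5 probes of Hnrnph1 have ATCC PTA 6475 means above 0, whereas those of Srsf5, Srsf11 and Sf3b6 lie on both sides.

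DSM 17938 at 24 h was compared with the same PBS mice, so its values and those above share their controls. By limma 0 of 50 members passed an adjusted p of 0.05 (0% of all genes). At an unadjusted p under 0.05, 2 members were higher (2.55% of all genes) and 4 lower (2.42%). The groups did not overlap for 2 higher members (4.66% of all genes) and 7 lower ones (4.38%). The members' median was -0.06 beside 0.01 for all genes. Under median scaling 0 members had an unadjusted p under 0.05, and without PBS replicate 2 or without DSM 17938 replicate 1 the count was also 0, while it was 10 without DSM 17938 replicate 2.

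Tra2a read 10.52, 10.45 and 10.42 after DSM 17938, a difference of 0.36 (SE 0.14; limma adjusted p = 0.911), and its group overlapped with PBS. Hnrnph1 read 10.97, 10.84 and 10.74, a difference of 0.39 (SE 0.16; limma adjusted p = 0.911), again with overlap. Of the lower members, Sf3b4 read 9.34, 9.85 and 9.57 (difference -0.45, SE 0.17) and lay below all PBS mice. Hnrnpk, which binds C-rich RNA, read 6.81, 7.10 and 6.88 against 7.36, 7.55 and 7.49, a difference of -0.54 (SE 0.22), also without overlap. Its other probes, detected in all 18 arrays, differed by -0.21, -0.14 and -0.10. Hnrnpf differed by -0.51 (SE 0.23) and Snrpb by -0.43 (SE 0.19), each with overlap of the groups; the adjusted p by limma was 0.911 for all 6. Srsf5 (0.31) and Srsf2 (0.25) lay above all PBS mice with an unadjusted p of 0.05 or more. For Srsf5 the lowest DSM 17938 mouse (11.604) and the highest PBS mouse (11.601) were nearly equal.

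**Figure D4:**
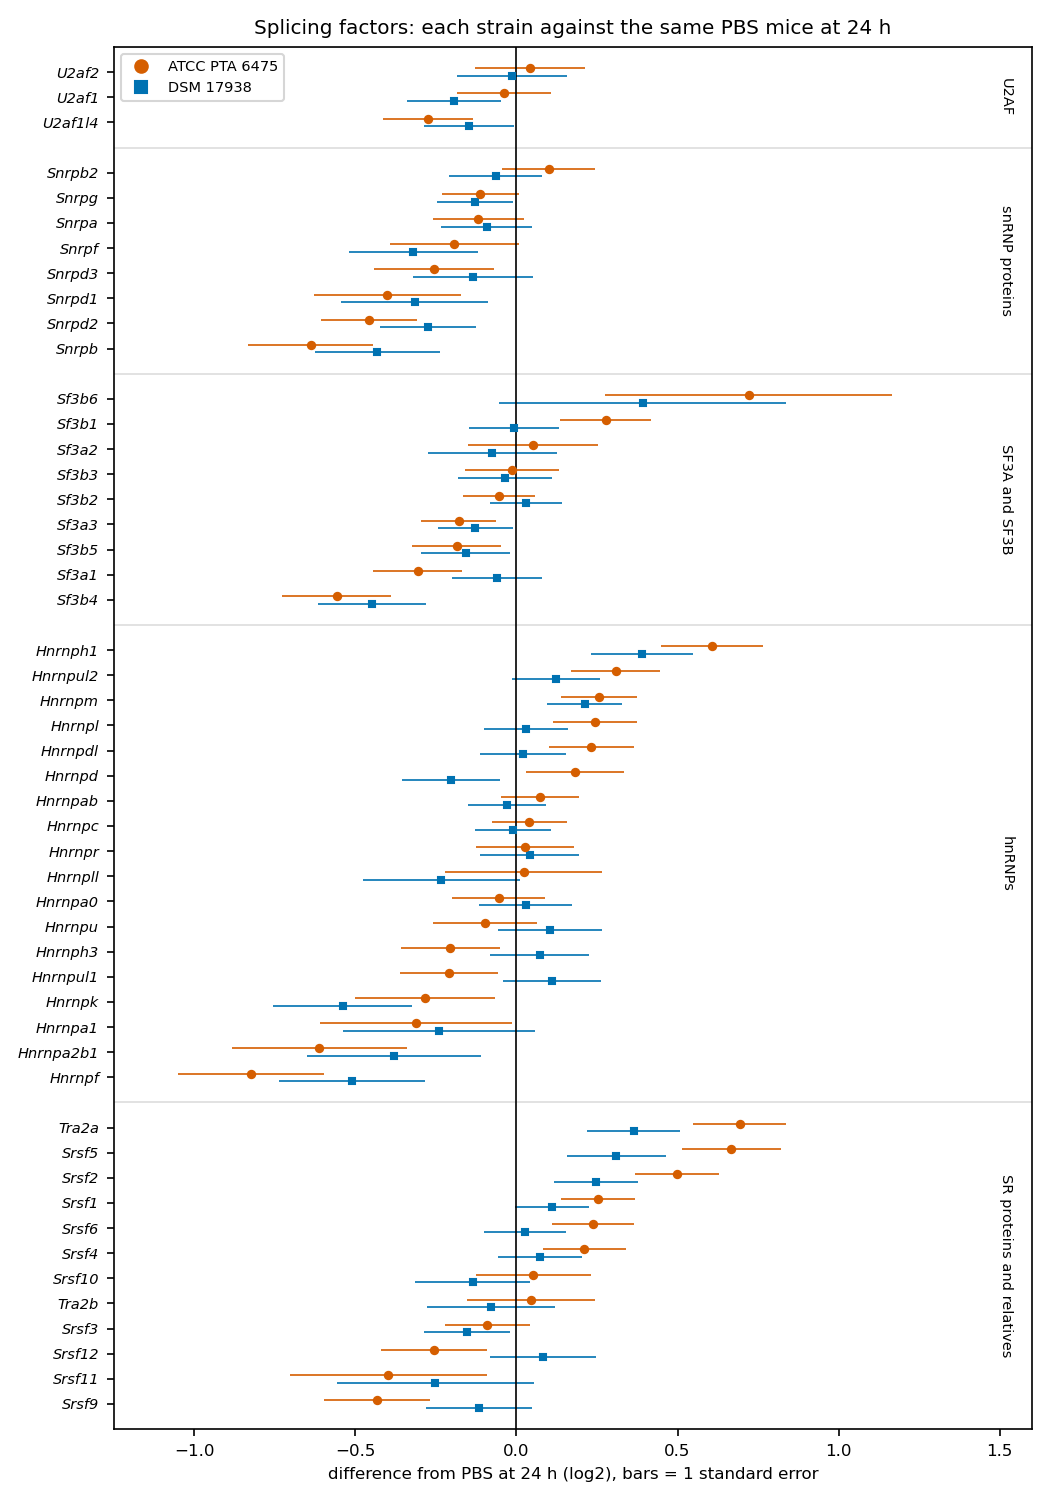
Differences from the shared PBS 24 h mice are plotted on the log2 scale for all 50 members by family, circles for ATCC PTA 6475 and squares for DSM 17938, with bars of 1 standard error. Tra2a, Srsf5, Srsf2 and Hnrnph1 lie highest among steady members and Hnrnpf lowest for ATCC PTA 6475. Sf3b6 has the widest bars. Under median scaling many members plotted above 0 for ATCC PTA 6475 fall below 0. Srsf1, Hnrnpul2, Hnrnpm, Hnrnpl and Srsf6 are among them, though these genes keep their sign relative to all genes. Of the 18 hnRNPs, 10 lie above 0 as plotted and 2 under that scaling. Relative to all genes, 7 of the 50 members differ in sign under that scaling.

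The strains were also set against each other. At 24 h, 0 members passed an adjusted p of 0.05 by limma (0% of all genes), and 3 were higher after ATCC PTA 6475 (2.15% of all genes) and 0 lower (1.85%) at an unadjusted p under 0.05. Under median scaling, which moved the median of all genes to -0.17, 0 were higher and 2 lower. Hnrnpd, also known as AUF1 and a regulator of mRNA decay, read 5.62, 6.14 and 5.93 after ATCC PTA 6475 and 5.47, 5.45 and 5.61 after DSM 17938, a difference of 0.39 (SE 0.15; limma adjusted p = 1.00). Tra2a was 0.33 (SE 0.14) and Srsf5 0.36 (SE 0.15) higher, with the same adjusted p. Hnrnpd and Tra2a did not overlap between the strains, and Srsf5 did. The 95% intervals of these differences reached from 0.06 to 0.71 for Hnrnpd, from 0.02 to 0.63 for Tra2a and from 0.03 to 0.68 for Srsf5. At 4 h 0 members passed the adjusted threshold (0% of all genes), and 0 were higher (1.94% of all genes) and 0 lower (1.44%) at an unadjusted p under 0.05, with differences from -0.27 to 0.16.

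At 4 h the members lay close to vehicle. For DSM 17938, 0 members passed an adjusted p of 0.05 by limma (0% of all genes), 1 was higher (1.66% of all genes) and 0 lower (1.68%) at an unadjusted p under 0.05, and all differences lay between -0.24 and 0.36. That member was Hnrnpdl, a relative of Hnrnpd, with 11.40, 11.25 and 11.56 against 10.92, 11.13 and 11.09 in PBS, a difference of 0.36 (SE 0.13; limma adjusted p = 1.00) without overlap. For ATCC PTA 6475, 0 members passed the adjusted threshold (0% of all genes), and 0 were higher (1.76% of all genes) and 1 lower (1.57%) at an unadjusted p under 0.05. This was Hnrnph3, a shorter relative of Hnrnph1, with 5.35, 5.55 and 5.04 against 5.77, 5.44 and 5.72, a difference of -0.33 (SE 0.15; limma adjusted p = 1.00) with overlap. Shares of members at an unadjusted p under 0.05 were thus near those of all genes at this hour.

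Values at 24 h were also compared with those at 4 h within each treatment. In PBS, 0 members passed an adjusted p of 0.05 by limma (0% of all genes), and 0 were higher (1.89% of all genes) and 2 lower (1.92%) at 24 h at an unadjusted p under 0.05. These were Tra2a (-0.33, SE 0.14) and Srsf5 (-0.33, SE 0.15), 2 of the members highest after ATCC PTA 6475 at 24 h. Srsf5 read 11.69, 11.88 and 11.82 in PBS at 4 h, and Tra2a 10.23, 10.52 and 10.53. The PBS mice at 24 h lay below those at 4 h for Srsf5 and overlapped with them for Tra2a. Against its own 4 h mice, ATCC PTA 6475 at 24 h differed by 0.21 for Tra2a and 0.27 for Srsf5, each with an unadjusted p of 0.05 or more.

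After DSM 17938, 0 members passed the adjusted threshold between the times (0% of all genes), and 0 were higher (1.19% of all genes) and 1 lower (1.28%) at 24 h at an unadjusted p under 0.05. This was Hnrnpk, which read 7.11, 7.43 and 7.77 at 4 h and differed by -0.51 (SE 0.22). After ATCC PTA 6475, 0 members passed the adjusted threshold (0% of all genes), 1 was higher (3.10% of all genes) and 2 were lower (2.82%) at an unadjusted p under 0.05. Hnrnpd differed by 0.33 (SE 0.15), and Hnrnpa2b1, which read 8.69, 9.21 and 9.28 at 4 h, differed by -0.72 (SE 0.27) without overlap. Srsf12, a testis-rich SR protein, was the other lower one, but it was detected in 0 of 3 mice at 24 h and has only a bound there.

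Whether a strain's difference from PBS itself differed between 24 h and 4 h was tested as an interaction. For ATCC PTA 6475, 0 members passed an adjusted p of 0.05 by limma (0% of all genes), and 7 of 50 had an unadjusted p under 0.05, where 4.70% of all genes did; under median scaling 1 member did, on the lower side. The differences between the times were 0.60 (SE 0.22) for Srsf5, 0.54 (SE 0.20) for Tra2a, 0.58 (SE 0.22) for Hnrnph1 and 0.41 (SE 0.19) for Srsf2. They were -0.93 (SE 0.38) for Hnrnpa2b1 and -0.62 (SE 0.27) for Snrpb, and the last of the 7 was Sf3b1, which was near background. For DSM 17938, 0 members passed the adjusted threshold (0% of all genes), and 1 had an unadjusted p under 0.05 (2.21% of all genes), Hnrnpk with -0.67 (SE 0.31).

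Other genes of the splicing machinery were read from lists of 168 names, chosen with earlier results known, of which 145 were measured. For ATCC PTA 6475 against PBS at 24 h, 23 were higher and 11 lower at an unadjusted p under 0.05, with a median difference of 0.01, and 0 passed an adjusted p of 0.05 by limma. These counts stand beside 7.59% of all genes higher and 7.48% lower, so 1 gene of a list of 12 is near the background. The lists were not read under median scaling. In this comparison that scaling moved the median of all genes to -0.16 and left 0 members higher at an unadjusted p under 0.05. The kinases, importer and partners of SR proteins had 8 of 20 higher and 0 lower, with a median of 0.29. Those of smallest p were the kinase Clk4 (0.65, SE 0.19), the coactivator Srrm1 (0.57, SE 0.17), which binds SR proteins, and Scaf8 (0.45, SE 0.15). Proteins of the U1, U5 and minor snRNPs had 4 of 22 higher and 0 lower, with Prpf3 (0.38), a protein of the tri-snRNP, and the U1-associated Luc7l (0.46) and Luc7l3 (0.60) of smallest p.

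The remaining lists were mixed or lay lower. The exon junction complex and TREX, which mark spliced mRNA and pass it to export, had 0 of 13 higher and 4 lower, with Thoc5 (-0.39), Thoc6 (-0.34) and Alyref (-0.51) of smallest p. Other alternative splicing regulators had 7 of 33 higher and 2 lower: Tia1 (0.53), which aids U1 at weak splice sites, was among the higher, and the cold shock protein Ybx1 (-0.95) and the C-rich RNA binder Pcbp1 (-0.74) were the lower ones. The Prp19 complex and helicases had 3 of 21 higher, among them Aqr (0.45), and 3 lower, among them Ppil1 (-0.64) and Crnkl1 (-0.52). The U2-related list had 1 of 12 higher, Rbm5 (0.45). The Lsm proteins had 1 of 12 lower, Lsm8 (-0.44), and snRNP assembly 1 of 12 lower, Gemin7 (-0.53), a subunit of the complex that loads Sm rings.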

How the data were processed

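RNA of laser-captured ileal epithelium from 18 mice was hybridised to Illumina mouse bead arrays. The deposited tables hold probe intensity, not normalised, and a detection fraction per probe, per the file headers; the submitters' processing notes name GenomeStudio. A deposited table of log2 values, processed by the authors, served as an alternative. Intensities were background-corrected, quantile-normalised and set to log2 with neqc (limma 3.58.1, R 4.3.3, offset 16), taking the detection p as 1 minus the fraction. The 24506 of 45281 probes that 3 or more arrays detected (detection p under 0.05) were retained, 1 per gene by highest mean. limma fitted 1 mean per group over all 18 arrays, with Benjamini-Hochberg adjustment over 16835 genes and unnamed probes in each comparison; the fit was tested on simulated data. With 3 mice a group, the limma p-values rest on the spread between mice pooled over the 6 groups (12 residual degrees of freedom) and moderated over all genes. An exact test of 3 mice against 3 was not run. Its smallest two-sided p is 0.1. Named were up to 6 members per direction and comparison and up to 3 genes per list, by smallest p under 0.05, members of extreme level or spread, and those whose probes differ most. The members and lists were chosen with earlier results of these data known. Chip, date and sex per array are not given in the sources used here.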

Additional observations from a re-analysis of the deposited data

How the results depend on the processing

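At an adjusted p under 0.05, limma called 0 members in each comparison and in each fit without 1 mouse; the exception among the alternatives was the replicate block, with 3 members for ATCC PTA 6475 against PBS at 24 h (Tra2a, Srsf2 and Srsf5), where it called 246 of 16835 genes in all. Same-numbered mice correlated above 0.1 throughout in 5 of 15 pairs of groups, while 15 of 18 arrays correlated best with their own number. The numbers stand for the letters A, B and C in the sample titles. Array names run in order by letter, with 1 array of every group under each. What a letter marks is not stated, so the main fit did not use it as a block. The following are members at an unadjusted p under 0.05. In the alternative with the second probe, only the 31 members with another detected probe changed probe, and the rest kept their chosen one. For ATCC PTA 6475 against PBS at 24 h the count was 8 under median scaling and 10 to 15 without 1 mouse. For DSM 17938 against PBS at 24 h it was 0 under median scaling, 2 from the compared arrays alone, 3 with the second probe, and 0 to 10 without 1 mouse. Between the strains at 24 h it was 2, both lower, under median scaling, 7 with array weights, without the detection filter and with the replicate block, 5 with the deposited values, 1 from the compared arrays alone, and 0 to 5 without 1 mouse. Between the strains at 4 h it was 2 with array weights and without the filter, 1 with the block, the deposited values, an offset of 50 or without the dimmest array (an alternative chosen after seeing the data), and 0 to 1 without 1 mouse. For ATCC PTA 6475 at 4 h it was 0 with the block, the deposited values, an offset of 50, the compared arrays alone, the second probe or without the dimmest array, and 0 to 2 without 1 mouse. For DSM 17938 at 4 h it was 0 under median scaling and with the second probe, and 0 to 2 without 1 mouse. Between the times it was, for ATCC PTA 6475, 6 with array weights and without the filter, 5 with the block and 1 to 6 without 1 mouse; for DSM 17938, 4 without the filter, 3 with the block, an offset of 50 or without the dimmest array, 2 with the deposited values, 0 under median scaling and 0 to 2 without 1 mouse; for PBS, 0 under median scaling and from the compared arrays alone, 1 with the second probe and 0 to 4 without 1 mouse. Under median scaling the members' median was -0.311 at 24 h for ATCC PTA 6475 against PBS, -0.208 between the strains at 24 h and -0.154 between the times of ATCC PTA 6475; the medians of all genes were then -0.156, -0.166 and -0.124. The signs below are those of members at an unadjusted p under 0.05 in the main fit. For ATCC PTA 6475 against PBS at 24 h they turned under median scaling in Srsf1 (-0.138), Hnrnpul2 (-0.00186) and Hnrnpm (-0.0963). Relative to all genes these 3 differences were 0.017, 0.154 and 0.0594. With the second probe signs turned in Hnrnpul2 (-0.488), Srsf5 (-0.335), Hnrnpm (-0.144) and Sf3a1 (0.364). With the second probe they also turned for Srsf5 between the strains at 24 h (-0.0999), Sf3b4 after DSM 17938 at 24 h (0.00861, from a probe near background detected in 3 arrays) and Hnrnpa2b1 between the times of ATCC PTA 6475 (0.103). Beyond what an alternative itself changes, the cause was not tested. The 3 members near background have only a bound in several groups.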
